A study of Drosophila melanogaster with 62 samples.

Results

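RNA was sequenced from single late-stage oocytes of *brat* hets and compared with RNA from single late-stage oocytes of *HisRFP* flies. The members were taken by the stage and genotype given for each library, and they comprise 8 of the 62 libraries of the study, 4 from *brat* hets (A to D) and 4 from *HisRFP* flies (A to D). *brat* het oocytes came from mothers with a balancer chromosome, CyO, opposite either a *brat* deficiency (brat Df/cyo) or the *fs1* allele (brat fs1/cyo), and the allele behind each library is not given, so the 4 were analysed as a single group. *HisRFP* oocytes came from w;His2AVRFP(III) mothers, which have a red fluorescent histone H2Av transgene on chromosome III, and their label lists no *brat* allele. The labels list no transgene for *brat* hets, whereas the study's methods describe heterozygous embryos that also have His2Av-RFP on chromosome III. The groups therefore differ in *brat* alleles, in the balancer and in whatever else separates the stocks, and these cannot be told apart. The comparison addresses how far the mRNA that a mother loads into her eggs already differs between the heterozygous stocks and the *HisRFP* stock before fertilization.

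BRAT is an RNA-binding protein of the TRIM-NHL family that represses translation and promotes decay of maternal mRNAs, acting on *hunchback* mRNA together with Pumilio and Nanos. A late oocyte makes little RNA of its own. Its mRNA was made by the nurse cells, its germline sisters, and it lies inside a layer of somatic follicle cells that secrete the vitelline membrane and the chorion, the outer eggshell. A balancer is a chromosome with many inversions and its own set of alleles, so flies with CyO differ from flies without it along the whole of chromosome 2.

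Between 12201163 and 14750245 reads per library were counted on genes in *brat* het oocytes, against 5512152 to 19725875 in *HisRFP* oocytes. The *brat* het oocytes were alike, with a Pearson's r of 0.981 to 0.985 between any 2 of them (log2 of CPM + 1, across genes), and the *HisRFP* oocytes were less so, with an r of 0.920 to 0.983. Libraries of a group differed by far more than sampling noise, and none was a copy of another. Oocyte B of *HisRFP* stood apart. It had reads on 11515 genes, against 7644 to 9848 in the other 7 oocytes, and 286 of the genes tested had at least 90% of their CPM, summed over the 8 oocytes, in this library, against 0 to 7 for each of the others. Markers of ovarian muscle summed to 0 to 0.751 CPM in *brat* het oocytes, against 33.3 CPM in *HisRFP* oocyte B and 0.175 to 0.842 CPM in the other *HisRFP* oocytes. *HisRFP* oocyte A stood apart in a second way, with nearly no chorion mRNA. Germline markers were high in every library, as the label of an oocyte requires: their sum was 2000 to 2380 CPM in *brat* het oocytes and 2180 to 2900 CPM in *HisRFP* oocytes. Markers of neurons summed to 0.640 to 1.13 CPM in *brat* het oocytes and 0 to 2.07 CPM in *HisRFP* oocytes, and those of fat body and haemocytes to 0.735 to 8.10 CPM and 0.349 to 1.68 CPM. CPM are counts scaled to library size after TMM scaling, a correction for the composition of each library.

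A difference between *brat* het and *HisRFP* oocytes was called for 146 genes of the 7624 that were tested (1.92%). The level was higher in *brat* het oocytes for 90 of these (1.18%) and lower for 56 (0.735%). A gene was called at an adjusted p under 0.05 with an absolute log2 fold change over 1. In all 146, the 4 *brat* het oocytes lay on a single side of the 4 *HisRFP* oocytes, as did 14.5% of all genes tested (8.04% with *brat* het above and 6.47% with *brat* het below). Among called genes, more of the rises were large. A log2 fold change over 3 was found for 41 of the called rises, and a value below -3 for 8 of the called falls. Over all genes tested, called or not, 148 were over 3 and 342 below -3. The median log2 fold change of all genes was -0.0457, and 132 of the called genes code for proteins and 11 are noncoding RNAs. No gene with at least 90% of its reads in *HisRFP* oocyte B was called, although all 286 had a log2 fold change below -3. Without *HisRFP* oocyte B, 262 genes were higher and 145 lower, and 144 of the 146 were called again.

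**Figure D1:**
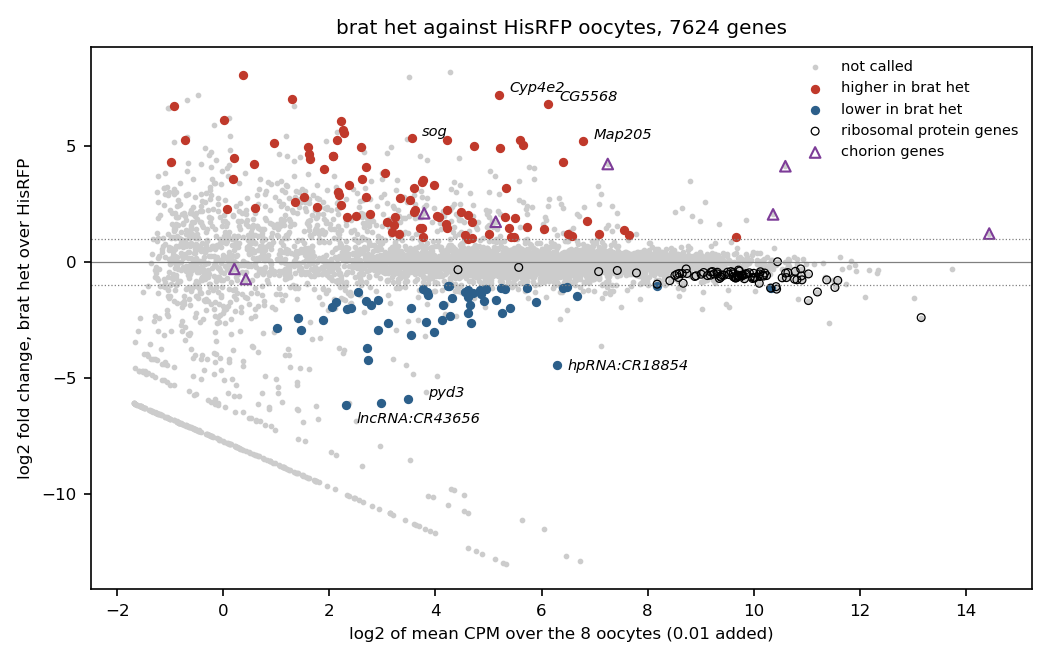
Log2 fold change of *brat* het over *HisRFP* oocytes (vertical axis) against the log2 of the mean CPM over the 8 oocytes (horizontal axis, 0.01 added) for the 7624 genes tested, with called genes coloured, ribosomal protein genes as open circles and chorion genes as triangles. The 90 rises lie across the range of levels, the ribosomal protein genes form a band below 0 at high levels, and the grey streak at the lower left holds genes with reads almost only in *HisRFP* oocyte B.

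Among called genes with a mean of at least 5 CPM in either group, the 12 largest rises were of genes with a mean of 8.63 to 213 CPM in *brat* het oocytes and at most 8.28 CPM in any *HisRFP* oocyte. *Cyp4e2* (FBgn0014469, dm6, 2R from 8444560 to 8447164, plus strand) encodes a cytochrome P450, an enzyme family that oxidizes hormones, fatty acids and toxins. It had 62.1, 57, 81.2 and 92.5 CPM in *brat* het oocytes A to D, against 0, 1.25, 0 and 0 CPM in *HisRFP* oocytes A to D (log2 fold change 7.21, standard error 0.81, adjusted p = 0.00462). The only *HisRFP* oocyte with reads was B, the library that stood apart. *CG5568* (FBgn0035641, 3L from 5871501 to 5873518, plus strand) had 133, 144, 142 and 136 CPM in *brat* het oocytes, against 0.527, 1.54, 0.842 and 2.1 CPM in *HisRFP* oocytes (6.83, standard error 0.33, adjusted p = 7.32e-05). Of the 12 genes, this one differed least between *brat* het oocytes. *CG5568* overlaps *CG18586* on the same strand, which was also higher (log2 fold change 1.06, a call that ended without any single oocyte except *HisRFP* B, adjusted p up to 0.123), and the counts of both are uncertain in the overlap.

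*Map205* (FBgn0002645, 3R from 32055279 to 32068441, minus strand) encodes a microtubule-associated protein that binds the mitotic kinase Polo. Its mRNA stood at 230, 211, 187 and 224 CPM in *brat* het oocytes, against 5.20, 8.28, 4.42 and 4.02 CPM in *HisRFP* oocytes (log2 fold change 5.22, standard error 0.24, adjusted p = 7.32e-05). This was the highest level among the 12 largest rises, and the groups lay far apart. Another gene of the mitotic apparatus, *Kebab*, a kinetochore and microtubule-end binding protein, had 22.8, 26.4, 30 and 27.8 CPM in *brat* het oocytes, against 8.50, 5.87, 6.52 and 6.64 CPM in *HisRFP* oocytes (1.95, standard error 0.17, adjusted p = 0.00114). *Kebab* and the other genes described here outside the rule for named genes (*mld*, *mth*, *GILT3*, *adp*, *stw*, *Tomosyn*, *unc-13*, *hpRNA:CR32205*, *CG18586*, *CG31926*, *cv-2*, *daw*, *cv*, *wit*, *bol*, *RNaseZ*, *rst*, *kirre*, *Tina-1*, *sordd2*, *CG17270*, *fbp*, *png*, *GstZ1*, *Ugt317A1*, *CG11158* and *CG30089* among them) were chosen after their values were seen.

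The rest of the 12 largest rises included a signalling antagonist, another P450 and genes known only by number. *sog* (short gastrulation), the secreted antagonist of BMP ligands that patterns the dorsal side of the later embryo, had 20.9, 6.76, 36.2 and 27.7 CPM in *brat* het oocytes, against 0.395, 1.11, 0.210 and 0.175 CPM in *HisRFP* oocytes (log2 fold change 5.35, standard error 0.72, adjusted p = 0.00976). Its level in *brat* het oocytes was uneven, lowest in oocyte B, and it lost its call in limma's voom fit with quality weights (adjusted p = 0.168). The P450 gene *Cyp6a17* had 7.28 to 11.4 CPM in *brat* het oocytes and 0 to 0.631 CPM in *HisRFP* oocytes (5.56, adjusted p = 0.0116). *CG9265* and *CG9436* were abundant, with 71.6 to 104 CPM and 88.7 to 107 CPM in *brat* het oocytes, against 1.22 to 6.95 CPM and 1.51 to 5.94 CPM in *HisRFP* oocytes (log2 fold changes 5.26 and 5.04, adjusted p = 0.00288 and 0.00142). The others, *CG17816* (6.09), *CG5096* (5.70), *CG18278* (5.28), *CG31886* (5.24) and *CG12219* (4.98), had adjusted p values of 0.000152 to 0.0126. *CG18278*, with 2.04 CPM in *brat* het oocyte A against 10.1 to 12.1 CPM in the other *brat* het oocytes, lost its call in the voom fit (adjusted p = 0.115). *CG5096* lost its call without *brat* het oocyte B, C or D (adjusted p up to 0.0521), and *Cyp6a17* without *brat* het oocyte B or D (adjusted p up to 0.0513).

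**Figure D2:**
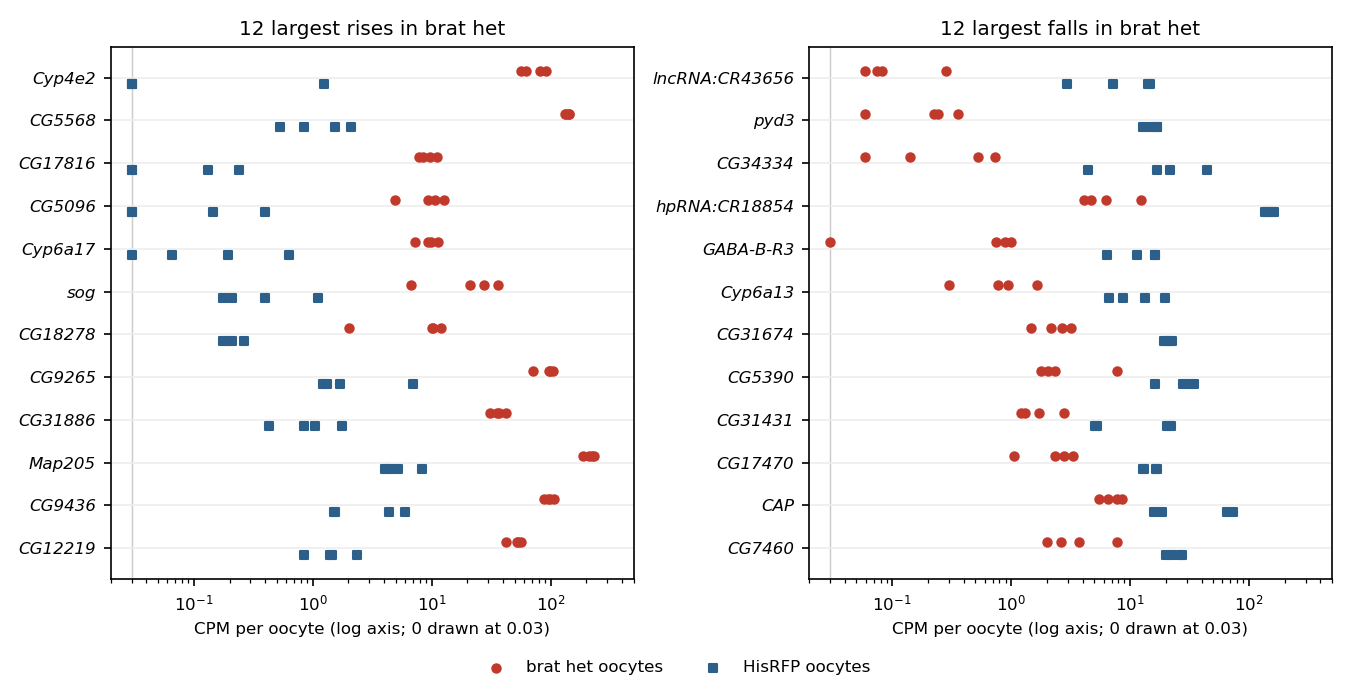
CPM of the 12 largest rises (left) and the 12 largest falls (right), with a point for each *brat* het oocyte (red circles) and each *HisRFP* oocyte (blue squares) on a log axis, where 0 is drawn at 0.03. *Map205* sits between 187 and 230 CPM in *brat* het oocytes and between 4.02 and 8.28 CPM in *HisRFP* oocytes, and in none of the 24 genes do the groups overlap.

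Smaller rises also separated the groups. *mld* (molting defective), a zinc finger protein needed for ecdysone synthesis, had 171, 181, 96.3 and 197 CPM in *brat* het oocytes, against 6.06, 12.6, 5.05 and 7.68 CPM in *HisRFP* oocytes (log2 fold change 4.32, adjusted p = 0.000964). *GILT3*, a thiol reductase of the lysosome, had 20.3 to 30.3 CPM in *brat* het oocytes and 1.22 to 3.27 CPM in *HisRFP* oocytes (3.53, adjusted p = 0.00221). *stw* (straw), the laccase that tans the cuticle, had 14.6 to 26.7 CPM in *brat* het oocytes and 1.57 to 3.47 CPM in *HisRFP* oocytes (3.20, adjusted p = 0.00234). *Tomosyn*, a SNARE-binding inhibitor of vesicle fusion, had 53.3 to 87.4 CPM in *brat* het oocytes and 5.93 to 12.3 CPM in *HisRFP* oocytes (3.18, adjusted p = 0.00139). *unc-13*, which primes synaptic vesicles for release, had 150 to 205 CPM in *brat* het oocytes and 25.9 to 78.8 CPM in *HisRFP* oocytes (1.75, adjusted p = 0.0251), but its call ended without *brat* het oocyte B, C or D or *HisRFP* oocyte A or D (adjusted p up to 0.0745). The receptor gene *mth* (methuselah) had 16.9 to 23.2 CPM in *brat* het oocytes and 1.68 to 4.82 CPM in *HisRFP* oocytes (2.69, adjusted p = 0.00610). *adp* (adipose), which limits fat storage, had 67.0 to 74.3 CPM in *brat* het oocytes and 11.5 to 27.9 CPM in *HisRFP* oocytes (1.88, adjusted p = 0.00936).

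The falls were led by genes of low level in *brat* het oocytes. *pyd3* (FBgn0037513, 3R from 7747913 to 7750079, minus strand) encodes beta-ureidopropionase, which completes the breakdown of pyrimidines. It had 0.245, 0.225, 0.0592 and 0.356 CPM in *brat* het oocytes, against 15, 16.8, 12.8 and 16.9 CPM in *HisRFP* oocytes (log2 fold change -6.08, standard error 0.46, adjusted p = 0.000761). *hpRNA:CR18854* (FBgn0285991, 2L from 9787294 to 9790745, minus strand) is a long hairpin RNA of the kind that is diced into endogenous siRNAs. It had 12.3, 6.31, 4.74 and 4.12 CPM in *brat* het oocytes, against 136, 163, 157 and 140 CPM in *HisRFP* oocytes (-4.45, standard error 0.35, adjusted p = 0.000877). The hairpin lies opposite *IP3K1*, and reads from the 2 strands were not separated in the counts. A second hairpin RNA moved the other way: *hpRNA:CR32205* had 11.4, 15.5, 16.5 and 16.6 CPM in *brat* het oocytes, against 3.82, 4, 4.42 and 3.32 CPM in *HisRFP* oocytes (1.95, standard error 0.20, adjusted p = 0.00302).

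The other falls included a pair of neighbours at the base of the X chromosome. The noncoding *lncRNA:CR43656* (X from 22870267 to 22872158) had 0.0818, 0.0751, 0.0592 and 0.284 CPM in *brat* het oocytes, against 2.96, 14.7, 14.3 and 7.16 CPM in *HisRFP* oocytes (log2 fold change -6.18, adjusted p = 0.00753). *CG34334*, 654 bp away, had 0.736, 0.526, 0.0592 and 0.142 CPM in *brat* het oocytes, against 4.41, 21.9, 44.4 and 16.8 CPM in *HisRFP* oocytes (-5.90, adjusted p = 0.0175). Both lie within the span of *CG42346*. The metabotropic GABA receptor gene *GABA-B-R3* had 0 to 0.995 CPM in *brat* het oocytes and 6.46 to 16.4 CPM in *HisRFP* oocytes (-4.22, adjusted p = 0.0368). *CAP*, a scaffold protein of muscle and cell adhesion, had 5.48 to 8.50 CPM in *brat* het oocytes and 15.9 to 74.1 CPM in *HisRFP* oocytes (-2.61, adjusted p = 0.0435), and its neighbour *RNaseZ*, which trims tRNA precursors, was lower too (-2.32, adjusted p = 0.0338, and up to 0.103 without any single oocyte except *HisRFP* B or C). *CG31674* (-3.13), *CG5390* (-3.01), *CG31431* (-2.93), *CG17470* (-2.64) and *CG7460* (-2.59) complete the 12 largest falls, with adjusted p values of 0.000964 to 0.0438. The called fall with the smallest standard error was that of *Tina-1*, at 51.9 to 60.8 CPM in *brat* het oocytes and 134 to 159 CPM in *HisRFP* oocytes (-1.44, standard error 0.09, adjusted p = 0.000351). Leaving out *brat* het oocyte D ended the calls of *CG34334*, *GABA-B-R3*, *CAP*, *CG5390*, *CG31431*, *CG17470* and *CG7460* (adjusted p = 0.0513 for *CG17470* and up to 0.132 for *CG31431*). Oocyte B of *brat* het ended the same calls apart from that of *CG17470*, and oocyte C those of *CG34334*, *GABA-B-R3*, *CAP*, *CG5390* and *CG31431*. Without *brat* het oocyte A the calls of *CAP* and *CG31431* ended, without *HisRFP* oocyte A those of *GABA-B-R3*, *CG5390* and *CG31431*, without *HisRFP* oocyte C those of *CAP* and *GABA-B-R3*, and without *HisRFP* oocyte D those of *CAP*, *GABA-B-R3*, *CG5390* and *CG7460*. No adjusted p in these fits exceeded 0.132.

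Detoxification enzymes were among the called genes in both directions. Of 28 cytochrome P450 genes tested, 4 were higher (*Cyp4e2*, *Cyp6a17*, *Cyp6a9* and *Cyp6d4*) and 1 was lower (*Cyp6a13*), against 1.18% higher and 0.735% lower over all genes, and DESeq2 called 8 higher and 1 lower. The median log2 fold change of the 28 was 0.984, against -0.0457 over all genes. *Cyp6a9* had 11.8, 6.31, 13.3 and 14.1 CPM in *brat* het oocytes, against 1.19, 2.74, 0.631 and 1.75 CPM in *HisRFP* oocytes (log2 fold change 2.81, adjusted p = 0.0213). It lies 3617 bp from *Cyp6a17* on 2R, in a cluster of P450 genes that resemble each other, and reads that matched several places had been discarded, so the counts of either gene are uncertain. *Cyp6d4* had 1.80, 1.80, 2.84 and 1.85 CPM in *brat* het oocytes, against at most 3 reads in each *HisRFP* oocyte, which makes it at least 5.54-fold higher (floor of 3 reads per library, adjusted p = 0.0152). *Cyp6a13* had 1.64, 0.300, 0.948 and 0.782 CPM in *brat* het oocytes, against 6.65, 8.72, 19.6 and 13.4 CPM in *HisRFP* oocytes (-3.71, adjusted p = 0.0161). Summed over the family, P450 mRNA came to 2192 to 2521 CPM in *brat* het oocytes and 2151 to 2979 CPM in *HisRFP* oocytes, ranges that overlap. Of these calls, only that of *Cyp4e2* was kept with each of the 8 oocytes left out in turn. Those of *Cyp6a9* and *Cyp6a13* ended without *brat* het oocyte C or D, that of *Cyp6a9* also without *HisRFP* oocyte A or D, and that of *Cyp6d4* without *brat* het oocyte B, C or D (adjusted p up to 0.0726).

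The conjugating enzymes that were called were lower. Of 23 glutathione S-transferase genes tested 2 were lower and 0 higher (1, *GstZ1*, higher with DESeq2), 11 had an unadjusted p under 0.05 and the median log2 fold change was -0.468. Over all genes, 0.735% were lower, the median was -0.0457 and 1732 of 7624 had an unadjusted p under 0.05. Of 11 UDP-glycosyltransferase genes tested 1 was lower and 0 higher (1, *Ugt317A1*, higher with DESeq2). *GstE6* had 61.2, 49.5, 45.7 and 55.5 CPM in *brat* het oocytes, against 155, 133, 85.7 and 91.8 CPM in *HisRFP* oocytes (log2 fold change -1.14, adjusted p = 0.0269), and *GstE8*, 1073 bp away on 2R, had 10.5 to 21.1 CPM in *brat* het oocytes and 29.7 to 37.1 CPM in *HisRFP* oocytes (-1.28, adjusted p = 0.0308). *Ugt36E1* had 71.5, 51.5, 45.1 and 64.2 CPM in *brat* het oocytes, against 114, 138, 122 and 108 CPM in *HisRFP* oocytes (-1.06, adjusted p = 0.0147). These 3 falls lie close to the threshold, and *GstE6* and *Ugt36E1* lost their calls in the voom fit, where they were at -0.87 and -0.98. Leaving out *brat* het oocyte B or C ended all 3 calls, *brat* het oocyte D or *HisRFP* oocyte A those of *GstE6* and *GstE8*, *HisRFP* oocyte C or D that of *GstE8*, and *HisRFP* oocyte B that of *Ugt36E1* (log2 fold changes of -1.33 to -0.93, adjusted p up to 0.103).

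Ribosomal protein mRNAs had log2 fold changes below 0 almost without exception, and 1 member was called by edgeR and 6 by DESeq2, all lower. Of 84 cytosolic ribosomal protein genes tested, 83 had a log2 fold change below 0, 62 of them at an unadjusted p under 0.05, against 12.4% of all genes tested that were lower at that p (10.3% were higher). In 35 of the 84, every *brat* het oocyte lay below every *HisRFP* oocyte, against 6.47% of all genes. Without *HisRFP* oocyte B this count was 55, but separation from fewer oocytes is easier for any gene. The share of all genes was not computed for that split, so the 55 is not read as a result about this list. Summed over the list, these mRNAs came to 68690, 65860, 63460 and 66020 CPM in *brat* het oocytes A to D, against 115900, 76310, 150400 and 118700 CPM in *HisRFP* oocytes A to D. The *brat* het oocytes were even and the *HisRFP* oocytes were not, with B the nearest to *brat* het and C, the shallowest library, the furthest. The part of depth in this difference was not tested. The median log2 fold change was -0.57, against -0.0457 over all genes. In embryos at nuclear cycle 12 most members were above 0 instead (values below). The member called by edgeR was *RpS5b*, the germline-enriched copy of the small-subunit protein uS7, with 811, 819, 849 and 731 CPM in *brat* het oocytes, against 2000, 1100, 2140 and 1770 CPM in *HisRFP* oocytes (-1.12, standard error 0.21, adjusted p = 0.0312), and leaving out any oocyte but *HisRFP* B ended that call (log2 fold changes of -1.13 to -1.01, adjusted p up to 0.116). At an adjusted p under 0.05 with no minimum fold, 4 members were lower, *RpS14a*, *RpL23* and *RpS21* besides *RpS5b*, against 1.38% of all genes (1.76% were higher). This count was 38 without *HisRFP* oocyte B and 0 without any other single oocyte, and it was 45 with DESeq2. Calls over all genes also rose without *HisRFP* oocyte B (262 higher and 145 lower) and with DESeq2 (253 and 136). The share of all genes with no minimum fold was not computed for those 2 fits, so the 38 and the 45 are not read as results about this list.

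Chorion mRNAs, the products of the follicle cells, varied widely between oocytes of a genotype. Of the 8 chorion genes tested 0 were called by edgeR or by DESeq2 and 1 (*Cp16*) had an unadjusted p under 0.05, as had 1732 of all 7624 genes tested. *Cp7Fa* had too few reads for a test. Summed over the list, they came to 31850, 57130, 39930 and 17280 CPM in *brat* het oocytes A to D, against 1.712, 14860, 6707 and 34540 CPM in *HisRFP* oocytes A to D. *HisRFP* oocyte D lay within the *brat* het range and *HisRFP* oocyte A had almost none. *Cp15*, a major protein of the late chorion, made up most of the total, with 21300, 46600, 39600 and 17100 CPM in *brat* het oocytes, against 1.25, 14800, 6560 and 31900 CPM in *HisRFP* oocytes (log2 fold change 1.23, standard error 1.54, adjusted p = 0.668). The study staged its oocytes by morphology. The parts of stage, of attached follicle cells and of RNA per follicle cell in this spread were not tested. *Cp18* and *Cp19* split the *brat* het oocytes themselves, with 5530, 6020, 129 and 33.2 CPM of *Cp18* in *brat* het oocytes A to D, against 0.0659, 57.7, 29.5 and 584 CPM in *HisRFP* oocytes A to D (4.13, standard error 2.13, adjusted p = 0.274). *Cp16* and *Cp19* were likewise highest in *brat* het oocytes A and B, with 576 and 4350 CPM in *brat* het oocyte A and 3.98 and 82.4 CPM in *brat* het oocyte D, against 0 and 0.0659 CPM in *HisRFP* oocyte A and 47.8 and 1920 CPM in *HisRFP* oocyte D (log2 fold changes 4.23 and 2.05, adjusted p = 0.214 and 0.578). The early chorion genes *Cp36* and *Cp38* had 29.4 to 87.9 CPM and 7.32 to 33.8 CPM in *brat* het oocytes, against 0.0659 to 52.6 CPM and 0.198 to 12.5 CPM in *HisRFP* oocytes (1.74 and 2.1, adjusted p = 0.386 and 0.225). *Cp7Fb* and *Cp7Fc* had at most 1.56 CPM in a *brat* het oocyte and at most 4.54 and 5.94 CPM in a *HisRFP* oocyte (-0.30 and -0.73, adjusted p = 0.919 and 0.788). Scaling without the chorion and other eggshell genes left the count at 90 higher and 56 lower.

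**Figure D3:**
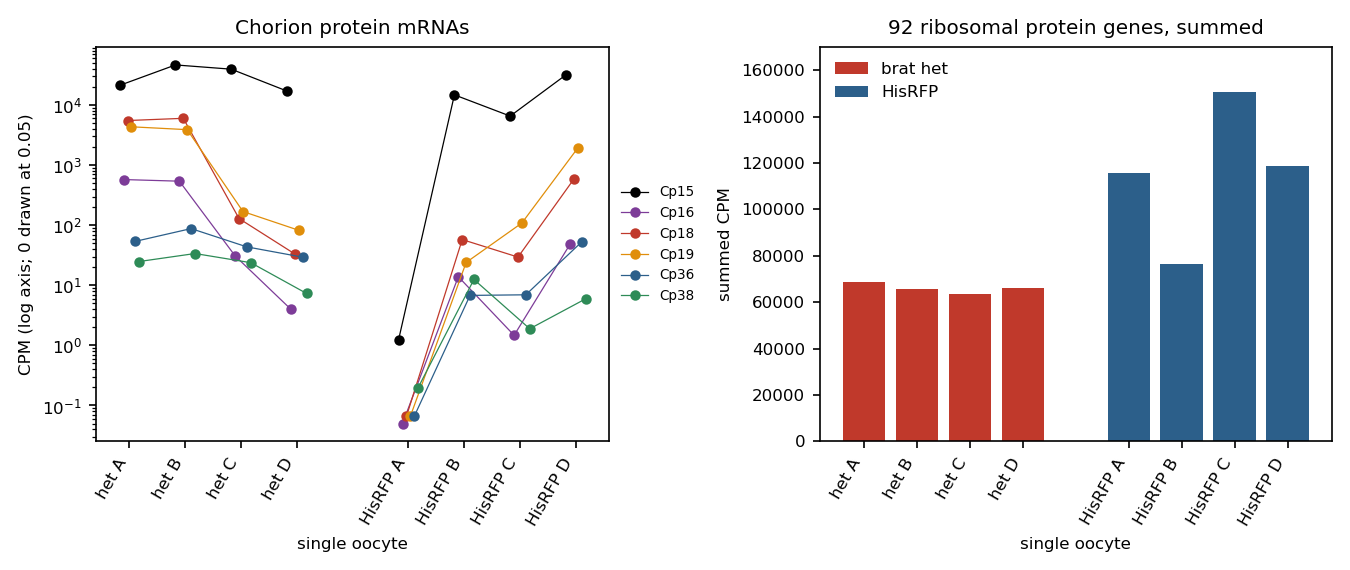
CPM of 6 chorion genes in each single oocyte on a log axis (left; lines join oocytes of a genotype for each gene and imply no order, and 0 is drawn at 0.05) and CPM summed over 92 ribosomal protein genes in each oocyte (right), with *brat* het oocytes left of *HisRFP* oocytes. *Cp15* stands at 17100 to 46600 CPM in *brat* het oocytes and at 1.25 to 31900 CPM in *HisRFP* oocytes, and ribosomal protein mRNA at 63460 to 68690 CPM in *brat* het oocytes and 76310 to 150400 CPM in *HisRFP* oocytes.

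Some rises were uneven between *brat* het oocytes. *CG31926* had 94.9, 124, 55.2 and 13.6 CPM in *brat* het oocytes, against 0, 3.42, 1.47 and 5.06 CPM in *HisRFP* oocytes (log2 fold change 4.91, adjusted p = 0.0461), and *cv-2*, a secreted regulator of BMP ligands, had 14.2, 2.48, 4.86 and 1.99 CPM in *brat* het oocytes, against 0.132, 0.241, 0 and 0.524 CPM in *HisRFP* oocytes (4.67, adjusted p = 0.0446). Chorion mRNA stands beside them at 17280 to 57130 CPM in *brat* het oocytes and 1.712 to 34540 CPM in *HisRFP* oocytes, and the part of follicle cell RNA in these rises was not tested. The activin-like ligand gene *daw* had 0.826 to 1.24 CPM in *brat* het oocytes and no read in *HisRFP* oocytes (adjusted p = 0.0406). The type II BMP receptor gene *wit* (wishful thinking) had 0.300 to 0.981 CPM in *brat* het oocytes and 2.79 to 6.74 CPM in *HisRFP* oocytes (-2.92, adjusted p = 0.0272), and *cv* (crossveinless), which helps to carry the ligands, had 2.20 to 3.76 CPM in *brat* het oocytes and 8.86 to 10.9 CPM in *HisRFP* oocytes (-1.68, adjusted p = 0.0134). The cell adhesion genes *rst* and *kirre*, which overlap on the X chromosome, were both higher (4.95 and 3.01, adjusted p = 0.0391 and 0.0426). *bol* (boule), an RNA-binding protein known for its role in male meiosis, had 3.15 to 9 CPM in *brat* het oocytes and 20.4 to 37.0 CPM in *HisRFP* oocytes (-2.51, adjusted p = 0.0145). The calls of *CG31926*, *cv-2* and *daw* ended without any single oocyte except *HisRFP* B (adjusted p up to 0.130), and those of *wit*, *rst* and *kirre* without any except *brat* het A and *HisRFP* B (up to 0.119). The call of *cv* ended without *brat* het oocyte B, C or D (up to 0.0567) and that of *bol* without *brat* het oocyte D (0.0553).

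BRAT itself, its partners and the maternal determinants were not called. *brat* (FBgn0010300, 2L from 19133816 to 19179758, plus strand) had 444, 859, 578 and 716 CPM in *brat* het oocytes, against 562, 595, 958 and 1080 CPM in *HisRFP* oocytes (log2 fold change -0.30, standard error 0.28, adjusted p = 0.562). The groups overlapped. *brat* het oocyte A was the lowest of the 8, as it was for *CG17568*, the gene next to *brat*, and the labels do not say which allele it came from. Without it the log2 fold change of *brat* was -0.15 and was not called. *zld*, the activator of the zygotic genome whose translation BRAT limits, had 493, 575, 242 and 445 CPM in *brat* het oocytes, against 155, 258, 863 and 919 CPM in *HisRFP* oocytes (-0.32, standard error 0.57, adjusted p = 0.768). *pum* (Pumilio) also split the *HisRFP* oocytes, at 474 to 1000 CPM in *brat* het oocytes, and at 336 and 452 CPM in *HisRFP* oocytes A and B against 1630 and 1790 CPM in C and D (-0.41, adjusted p = 0.689). *nanos* had 167 to 237 CPM in *brat* het oocytes and 189 to 371 CPM in *HisRFP* oocytes (-0.43, adjusted p = 0.249), and *hb* (hunchback) had 136 to 230 CPM in *brat* het oocytes and 110 to 348 CPM in *HisRFP* oocytes (-0.28, adjusted p = 0.667). The determinant mRNAs *osk* (oskar, which assembles the germ plasm) and *bcd* (bicoid, the anterior morphogen) had log2 fold changes of 0.14 and -0.20 (adjusted p = 0.731 and 0.850). Of 18 genes tested in the list of BRAT cofactors, targets and other maternal translation regulators, edgeR called 0, DESeq2 called 1 higher (*png*, a kinase subunit that drives translation at egg activation) and 3 had an unadjusted p under 0.05 (*png*, *mei-P26* and *eIF4EHP*, at log2 fold changes of 1.16, -0.37 and -0.20). Of 18 oocyte and germ plasm mRNAs, edgeR and DESeq2 called 0 and 5 had an unadjusted p under 0.05 (*exu*, *swa*, *gcl*, *orb* and *bru1*, at -0.55 to -0.36). Over all 7624 genes tested, 1732 had an unadjusted p under 0.05, so neither count is read as a result about these lists. *Act5C*, a cytoplasmic actin, had 2660 to 4370 CPM in *brat* het oocytes and 3230 to 4710 CPM in *HisRFP* oocytes (-0.12, standard error 0.21, adjusted p = 0.763), and its difference was 0.00 when libraries were scaled to their totals.

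Genes that mark the stocks were compared next. *His2Av*, the gene from which the transgene of the *HisRFP* stock was built, had 946, 703, 819 and 713 CPM in *brat* het oocytes, against 1500, 1330, 1230 and 1330 CPM in *HisRFP* oocytes (log2 fold change -0.76, standard error 0.14, adjusted p = 0.0304). The groups did not overlap, but the difference stayed under the fold threshold. *pr* (purple), an enzyme of eye pigment synthesis on 2L for which many CyO chromosomes have a mutant allele, had 30.3, 33.2, 39.4 and 32.1 CPM in *brat* het oocytes, against 87.9, 76.7, 64.2 and 61.3 CPM in *HisRFP* oocytes (-1.10, standard error 0.14, adjusted p = 0.00824). Its call ended without *brat* het oocyte B or D or *HisRFP* oocyte A (log2 fold changes of -1.06 to -1.0, adjusted p up to 0.0513). *w* (white), whose mutation the label of the *HisRFP* stock names, had 2.86 to 7.47 CPM in *brat* het oocytes and 3.67 to 4.63 CPM in *HisRFP* oocytes (0.25, adjusted p = 0.708), and *cn* (cinnabar) had at most 2 reads in any of the 8 oocytes.

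Chromosome 2, which is heterozygous for the balancer in *brat* hets, held a larger share of calls than chromosome 3. The calls numbered 71 of 2912 genes on chromosome 2 (2.44%, with 45 higher and 26 lower) and 49 of 3264 on chromosome 3 (1.5%, with 29 higher and 20 lower). By arm the share called was 2.57% on 2L, 2.31% on 2R, 1.51% on 3L, 1.49% on 3R, 1.72% on X and 3.17% of the 63 genes tested on chromosome 4. The difference between chromosomes was not tested, since neighbouring genes are not independent. The median over the region around *brat* was close to 0, while a run of genes beside *brat* was low in a single oocyte. Of 94 genes tested within 500 kb of *brat* (2L from 18633816 to 19679758), 0 were higher and 1, *Ugt36E1*, was lower (0 higher and 3 lower within 1 Mb, where *pr* and *fbp* join it), with a median log2 fold change of 0.00968. The median ratio of these genes to their *HisRFP* mean was 0.982, 1.0, 1.03 and 0.997 in *brat* het oocytes A to D, against 0.977, 1.04, 0.973 and 0.994 in *HisRFP* oocytes A to D. From *brat* towards higher coordinates, 4 consecutive genes were lowest in *brat* het oocyte A among the *brat* het oocytes, and these genes were singled out after their values were seen. *brat* stood at 444 CPM in *brat* het oocyte A and 578 to 859 CPM in *brat* het oocytes B to D, *CG17568* at 19.8 CPM and 41.7 to 48.3 CPM, *CG46059* at 1.14 CPM and 1.49 to 2.1 CPM, and *gammaTub37C*, the maternal gamma-tubulin, at 108 CPM and 169 to 223 CPM. The *HisRFP* oocytes had 562 to 1080 CPM of *brat*, 35.8 to 49.6 CPM of *CG17568*, 1.45 to 4 CPM of *CG46059* and 162 to 238 CPM of *gammaTub37C*. *drl*, a Wnt receptor gene that lies after the next gene, had 154 CPM in *brat* het oocyte A. It had 0 to 0.427 CPM in the other *brat* het oocytes and 0 to 0.524 CPM in *HisRFP* oocytes (log2 fold change 8.21, adjusted p = 0.177 between groups, not called). The allele behind oocyte A is not given, and the part of the alleles in these values was not tested. In 16 pairs, called genes that follow each other on a chromosome lay within 20 kb or overlapped. Among them were *Cyp6a17* and *Cyp6a9*, *GstE6* and *GstE8*, *CAP* and *RNaseZ*, and *kirre* and *rst*. In 14 pairs both moved in the same direction. Of all calls 61.6% were higher, so unlinked genes would often agree too, and this was not tested. The pairs *kirre* with *rst* and *CG5568* with *CG18586* overlap, so their counts may not be independent.

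The calls were then looked up in separate libraries, the embryos laid by *brat* hets and by *HisRFP* mothers, whose mRNA at NC10 (nuclear cycle 10) is still mostly maternal. At NC10 the test called 237 of 6890 genes (3.44%, with 2.05% higher and 1.39% lower), and 77 of the 146 oocyte calls were called there in the same direction (52.7% of the oocyte calls, Wilson 95% confidence interval 44.7% to 60.7%, and 32.5% of the NC10 calls), 52 higher and 25 lower. None was called in the opposite direction. Of the 140 that could be tested at NC10, 133 had the same sign, and of genes not called in oocytes, 2.30% were called at NC10. At NC12, where 4.37% of all genes tested were called (2.26% higher and 2.1% lower), 80 (54.8%) were called in the same direction and 2, *GstE6* and *CG11158*, in the opposite. In later NC14, when the zygotic genome is active and 3.71% of all genes were called (2.13% higher and 1.58% lower), 46 (31.5%) were called in the same direction and 2, *cv-2* and *CG30089*, in the opposite. By the number of embryo stages at which a gene was called in the same direction as in oocytes, 49 oocyte calls were found at none, 27 at 1, 34 at 2 and 36 at all 3. These intervals cover counting error over genes only.

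**Figure D4:**
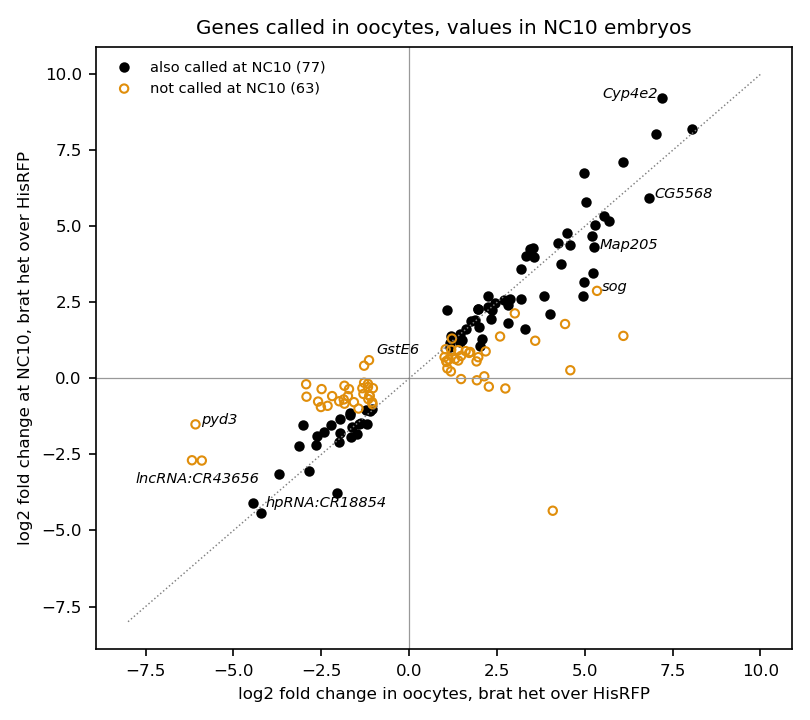
Log2 fold change of *brat* het over *HisRFP* at NC10 (vertical axis) against that in oocytes (horizontal axis) for the 140 oocyte calls tested at both stages, with filled points for the 77 also called at NC10, open points for the 63 that were not, and a dotted line of equal change. *Map205* lies near the line, at 5.22 in oocytes and 4.67 at NC10, and *pyd3* lies far from it, at -6.08 and -1.51.

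The genes called at all 3 embryo stages include 7 of the 12 largest rises. *Cyp4e2* had log2 fold changes of 9.22 at NC10, 10.14 at NC12 and 8.33 in later NC14, *CG5568* of 5.95, 5.69 and 4.55, *Map205* of 4.67, 5.02 and 5.34, and *CG12219* of 6.74, 6.91 and 2.58. *CG17816*, *CG5096* and *CG18278* complete the 7. *GILT3* (4.29, 4.43 and 5.4), *mth* (2.59, 3.61 and 2.78), *adp* (1.91, 1.91 and 1.59) and *Kebab* (2.30, 2.61 and 2.91) were called at each stage too, as were both hairpin RNAs, *hpRNA:CR18854* (-4.09, -3.90 and -3.55) and *hpRNA:CR32205* (2.28, 1.84 and 2.01). Falls called at every stage included *CG31674* (-2.22, -2.79 and -2.66), *Cyp6a13* (-3.14, -3.32 and -3.75), *Ugt36E1* (-1.02, -1.07 and -1.02) and *sordd2* (-1.82, -1.78 and -1.44). *pr* was lower at NC10 and NC12 (-1.07 and -1.03) and was not called in later NC14 (-0.72). *sog*, in contrast, was called at no embryo stage (2.88, 3.75 and 0.16), and neither was *CG17270* (-0.32, -0.44 and -0.56). The ribosomal protein list did not keep its direction past NC10. Of 85 members tested, 79 were below 0 at NC10 (median -0.171), 26 at NC12 (0.0639) and 29 in later NC14 (0.108). The medians over all genes were -0.0103, -0.0016 and 0.00291.

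A fit of the 16 oocyte and NC10 libraries together tested whether the change in oocytes differed from that at NC10. Of 8013 genes, 5 had a higher change in oocytes (0.0624%, *Pvr*, *Lmpt*, *Hk*, *Strn-Mlck* and *CG12991*) and 10 a lower one (0.125%), or 0.187% of those tested, and 3 of them were oocyte calls. *pyd3* was at a log2 fold change of -6.08 in oocytes and -1.51, not called, at NC10, a difference of -4.59 (adjusted p = 0.0326). It was not confined to oocytes, since it was called lower at NC12 (-3.42, adjusted p = 0.000792) and in later NC14 (-1.97, adjusted p = 0.0309). *GstE6* was lower in oocytes (-1.14), had a log2 fold change of 0.60 at NC10 and was called higher at NC12 (1.43), and its difference between oocytes and NC10 was -1.75 (adjusted p = 0.0323). *CG17270* was lower in oocytes, at 13.4 to 16.4 CPM in *brat* het and 33.2 to 43.6 CPM in *HisRFP* (-1.33, adjusted p = 0.00155), and its difference was -1.01 (adjusted p = 0.0323). For *sog* and the other oocyte calls the difference did not pass the threshold.

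Oocytes of *brat* mutants (labelled brat Df/fs1, 4 libraries) were measured against the same *HisRFP* oocytes, so their values stand here beside those of *brat* hets and are not independent of them. *Cyp4e2* had log2 fold changes over *HisRFP* of 7.21 in *brat* hets and 7.15 in *brat* mutants, *CG5568* of 6.83 and 6.56, *Map205* of 5.22 and 4.76, *hpRNA:CR18854* of -4.45 and -4.46 and *CG31674* of -3.13 and -2.22, and each was called in both. Among all genes, 1.15% were called in *brat* mutants over *HisRFP* (0.684% higher and 0.465% lower). *pyd3* was at -6.08 in *brat* hets and -1.62, not called, in *brat* mutants, and it was higher in *brat* mutants than in *brat* hets by 4.43. *CG5096* was lower in *brat* mutants than in *brat* hets (-3.64). Of 84 ribosomal protein genes, 77 were below 0 in *brat* mutants over *HisRFP* (median -0.158, against -0.0288 over all genes). Against *brat* hets, 82 of the 84 were above 0 in *brat* mutants (median 0.395, against -0.00396). *pr* and *Ugt36E1* were at -1.10 and -1.06 in *brat* hets and at -0.42 and -0.16 in *brat* mutants, and the difference between *brat* mutants and *brat* hets passed the adjusted p but stayed under the fold threshold (0.66 and 0.87, adjusted p = 0.0133 and 0.00284). Between *brat* mutants and *brat* hets, 7.50% of all genes were called (0.839% higher and 6.66% lower in mutants), among them all 8 chorion genes tested, which were lower in mutants.

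How many genes were called depended on single oocytes and on the test. With each oocyte left out in turn, 26 to 262 genes were higher and 13 to 145 lower. Without *brat* het oocytes A, B, C and D there were 81, 34, 34 and 26 higher and 74, 15, 18 and 13 lower, and without *HisRFP* oocytes A, B, C and D 48, 262, 55 and 51 higher and 36, 145, 35 and 31 lower. The share of oocyte calls found again at NC10 ran from 25.6% without *HisRFP* oocyte B to 74.4% without *brat* het oocyte D. A set of 33 genes was called in all 8 of these fits, and 14 of the 31 called genes named by rule are among them, *Cyp4e2*, *CG5568*, *CG17816*, *sog*, *CG18278*, *CG9265*, *CG31886*, *Map205*, *CG9436* and *CG12219* of the rises and *lncRNA:CR43656*, *pyd3*, *hpRNA:CR18854* and *CG31674* of the falls.

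**Figure D5:**
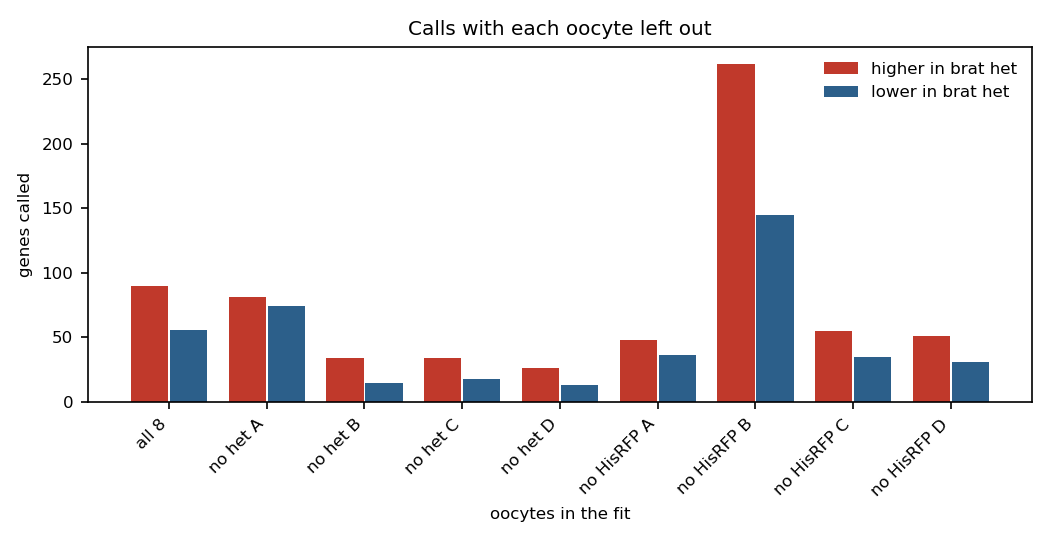
Genes called higher (red) and lower (blue) in *brat* het than in *HisRFP* oocytes (vertical axis) with all 8 oocytes and with each oocyte left out in turn (horizontal axis). All 8 give 90 higher and 56 lower, and without *HisRFP* oocyte B the counts are 262 and 145.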

How the data were processed

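RNA-seq was performed by the authors on single oocytes and staged embryos. Reads were aligned to dm6 with HISAT2 2.1.0, those aligning to multiple places were discarded, SAMtools filtered on mapping quality and featureCounts 1.5.3 counted reads per gene without using strand. The deposited values are these raw counts, one column per library, with no normalization and no filter. Of 17510 gene identifiers, 99.4% matched the Ensembl annotation of the same assembly.

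Only the 8 oocyte libraries entered the fit. Genes with at least 50 reads over them were tested with edgeR 4.0.16 in R 4.3.3 (TMM factors, quasi-likelihood F-test, Benjamini-Hochberg adjustment). Calls required an adjusted p under 0.05 with a log2 fold change over 1 or below -1. The standard error is the fold change divided by the square root of F, and CPM use the same factors. Embryo stages and *brat*-mutant oocytes were fitted in the same way. Alternatives were RLE factors, library totals, TMM without eggshell genes, DESeq2 1.42.0, limma 3.58.1 voom with quality weights, other count filters, all 62 libraries in a common fit, a replicate block, no minimum fold, and each oocyte left out. The fit of oocytes with NC10 and the fit without *HisRFP* oocytes A and B were added after seeing the data.

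The members, gene lists and tests were chosen with earlier results of these data known. Genes were named by rule: the 12 largest called rises and 12 largest called falls with groups that do not overlap whose mean reached 5 CPM in either group, a fixed set (*brat*, *zld*, *Act5C*, *His2Av*, *w*, *pr*, *cn*, *pum*, *nanos*, *hb*, *osk*, *bcd*), called members of the gene lists, all chorion genes, and genes with at most 3 reads in each library of a group and a mean of 5 CPM in the other (0 genes). Libraries are single oocytes, and nothing says whether they came from separate mothers, so p-values measure only the spread between these oocytes. In simulated counts for this comparison (7439 genes tested), edgeR recovered 83 of 107 genes changed by a log2 fold of 2 and 80 of 93 changed by 3, with 1 false call. In the same counts DESeq2 recovered 90 and 83 of these genes with 24 false calls, and voom 82 and 80 with 0. The simulation gave both groups the same spread per gene and had no library that stood apart. It therefore does not measure the error with the uneven oocytes compared here. Intervals cover counting error only. Figures and summaries were made in Python 3.11.15.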

Additional observations from a re-analysis of the deposited data

Results flagged for a closer look

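In groups of 4 oocytes, a value was singled out by its gap to the nearest other oocyte, divided by the range of the group. The ratio had to pass Dixon's critical value at the 95% level. Chance gives this in about 1 in 20 groups only where values are independent and normally distributed. CPM with zeros, in groups that share the same oocytes, do not meet this, so that rate does not apply here. Of 136 groups examined, 13 were singled out this way, and 7 of these were *HisRFP* oocyte values of single genes. *HisRFP* oocyte D was the highest for 5 chorion genes: *Cp7Fb* at 4.54 CPM, *Cp7Fc* at 5.94 CPM, *Cp36* at 52.6 CPM, *Cp18* at 584 CPM and *Cp19* at 1920 CPM, where the other *HisRFP* oocytes had at most 0.578, 0.578, 6.95, 57.7 and 109 CPM. *HisRFP* oocyte B was the only *HisRFP* oocyte with *Cyp4e2* reads (1.25 CPM), and it was the highest in the summed CPM of the genes of ovarian and oviduct muscle (52.86, against 2.97 to 4.42 in the others) and of the UDP-glycosyltransferases (547.3, against 382 to 401). *HisRFP* oocyte C was the highest for *CG9265* (6.95 CPM, against 1.22 to 1.69). Among *brat* het oocytes, A was the highest for *CG5390* (7.77 CPM, against 1.78 to 2.33), C for *Cyp6d4* (2.84 CPM, against 1.80 to 1.85), and D for *lncRNA:CR43656* (0.284 CPM, against 0.0592 to 0.0818) and for the summed CPM of fat body and haemolymph genes (8.244, against 0.981 to 2.03).

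The change between *brat* het and *HisRFP* in oocytes differed from that at NC10 for 3 oocyte calls, by an interaction term over 16 libraries. The difference was -4.59 for *pyd3* (adjusted p = 0.0326), -1.75 for *GstE6* (adjusted p = 0.0323) and -1.01 for *CG17270* (adjusted p = 0.0323), all on the log2 scale, and all 3 were lower in each of the 4 *brat* het oocytes than in any *HisRFP* oocyte.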

How the results depend on the processing

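The count of calls depended on the test and on which oocytes entered the fit. Genes higher and lower in *brat* het oocytes numbered 253 and 136 with DESeq2's Wald test, 174 and 216 with limma's voom and quality weights, and 300 and 375 in a common fit of all 62 libraries, against 90 and 56 here. With library totals 37 genes were lower and 93 higher, and the median log2 fold change of all genes was 0.063. An adjusted p under 0.05 with no minimum fold gave 105 lower and 134 higher. Between 26 and 262 genes were higher and between 13 and 145 lower with 1 oocyte left out. Leaving out *HisRFP* oocytes A and B together, an alternative chosen after seeing the data, gave 275 and 302. With the replicate letter as a block, 14 genes were higher and 7 lower. Same-lettered oocytes deviated from their group means with a mean r of -0.178 and none matched its own letter best, so letters were not taken as pairs. The share of oocyte calls called again at NC10 (52.7%) was 35.5% with DESeq2, 76.2% with the replicate block, 18.5% without *HisRFP* oocytes A and B, and 25.6% to 74.4% with each oocyte left out. The share of calls on chromosome 2 (48.6%) was 61.9% with the block. In later NC14, 454 genes were called with DESeq2, against 282. The median log2 fold change near *brat* (0.00968) was -0.0273 within 250 kb, -0.02 within 1 Mb, 0.108 with library totals, 0.0596 with voom, 0.12 without *HisRFP* oocytes A and B, and -0.0232 to 0.0578 with each oocyte left out. Signs turned for genes that were not called: *Act5C* was at 0.00 with library totals, *bcd* at 0.04 with the block, *Cp7Fb* at 1.12 with voom and 1.29 with the block, and *Cp7Fc* at 0.16 and 0.64. With each oocyte left out, *Act5C* ran from -0.21 to 0.03, *zld* from -0.63 to 0.05, *hb* from -0.49 to 0.07, *osk* from -0.01 to 0.34, *bcd* from -0.55 to 0.23, *Cp7Fb* from -0.73 to 2.12 and *Cp7Fc* from -1.16 to 1.81. None of the 31 called genes named by rule changed sign under any of these fits, and 21 of them lost the call with the block and 6 with library totals. The cause of these shifts was not tested. With 5512152 reads in the shallowest oocyte, a gene under 1 CPM had few reads there, and low falls and rises carry that counting error.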

Other observations

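Other follicle cell, muscle and stress genes were examined as lists. The counts at an unadjusted p under 0.05 stand beside 1732 of 7624 over all genes tested. Of 14 other eggshell and follicle cell genes tested, edgeR called 0 and DESeq2 called *ndl*, the protease that starts dorsoventral patterning, higher. *ndl*, *Femcoat* and *yellow-g* had an unadjusted p under 0.05, at log2 fold changes of 3.24, 4.06 and 2.52. Of 6 genes of mature follicle cells and ovulation, edgeR called 0 and DESeq2 called *peb* higher, and *peb* and *Oamb*, the octopamine receptor needed for ovulation, had an unadjusted p under 0.05 (1.74 and 2.42). Chorion mRNA stood at 17280 to 57130 CPM in *brat* het oocytes and 1.712 to 34540 CPM in *HisRFP* oocytes, and the part of follicle cell RNA in these values was not tested. Of 7 muscle genes tested, edgeR and DESeq2 called 0, and *Mhc*, *Mlc2*, *up* and *Act87E* had an unadjusted p under 0.05 (-4.48, -5.07, -6.54 and -1.43). Muscle genes summed to 3.269 to 7.058 CPM in *brat* het oocytes, against 52.86 CPM in *HisRFP* oocyte B and 2.967 to 4.419 CPM in the other *HisRFP* oocytes. Of 6 heat shock genes tested, edgeR and DESeq2 called 0, and *Hsp68* and *Hsp83* had an unadjusted p under 0.05 (-0.81 and -0.39). The genes named here were chosen after their values were seen.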
